A study of Mus musculus with 59 samples.

Results

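The nuclear-encoded subunits of the oxidative phosphorylation complexes were followed across 5 brain regions and 3 genotypes of a mouse model of spinocerebellar ataxia type 1. The members were the protein-coding genes whose symbols mark them as subunits of complexes I to V and whose mean level was at least 1 CPM in WT cerebellum or WT cortex. Of 54232 mouse genes, 85 protein-coding genes matched by symbol and 81 were members, with 35 in complex I, 4 in complex II, 8 in complex III, 17 in complex IV and 17 in complex V. The 4 left out were Cox7b2, Cox8b, Cox8c and a further gene ID named Atp5o. All 81 members reached 1 CPM in both of these WT regions, and all passed the filter on low counts in every comparison.

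The mice were 10 weeks old and on a C57BL/6 background by the labels (C57BL/6J in the study's methods). They were WT, or carried an Atxn1 allele with an expanded run of glutamine codons beside a 2Q allele (Atxn1 154Q/2Q, called 154Q here), or carried the same expanded allele with the changes V591A and S602D (Atxn1 154Q[V591A;S602D]/2Q, called 154Q-AXH). These changes lie in the AXH domain, through which ATXN1 binds the repressor CIC, and the study asked what the expanded protein does without that contact. Both alleles are knock-ins at the endogenous Atxn1 locus and are carried in every cell. Each library was 1 mouse and 1 region, with 4 libraries in each group and 3 in 154Q-AXH brainstem. Mice carry label numbers, and WT-70 stands for WT mouse 70. Values of single libraries are given in ascending order of these numbers, from WT-70 to WT-221, from 154Q-69 to 154Q-76, and from 154Q-AXH-207 to 154Q-AXH-218.

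Complexes I to IV pass electrons from NADH and succinate to oxygen. Complexes I, III and IV pump protons across the inner mitochondrial membrane as they do so, and complex V uses the proton gradient to make ATP. A few core subunits of complexes I, III, IV and V are encoded in mitochondrial DNA, and all other subunits, with the whole of complex II, are encoded in the nucleus. Neurons depend on this pathway to hold their ion gradients, and several subunits of complex IV have isoforms that are used in particular tissues or cell types. NRF1, the ETS factor GABP, YY1 and ERRA are known regulators of nuclear genes for these subunits.

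Libraries held 28.1 to 112 M counted read pairs, and striatal and cortical libraries were the shallower ones. In striatal and cortical libraries 5.10 to 5.33% of read pairs were ambiguous, against 4.355 to 4.80% in the other regions. Stranded counting gave 1 strand 50.04 to 50.11% there, against 48.91 to 49.74%. Comparisons of striatum or cortex with the other regions cannot be told apart from this difference between libraries. Summed region markers were highest in their own region in WT for all 5 marker lists. The cortex list separated the regions least, at 619 CPM in WT cortex, 458 in WT striatum and 312 in WT brainstem. It therefore does little to tell striatum from cortex. The hippocampal library of 154Q-76 held 335 CPM of summed brainstem markers, against 0.208 to 1.58 CPM in the other hippocampal libraries, and held both Xist (180 CPM) and Ddx3y (51.8 CPM). The cortical library of WT-221 held 483 CPM of Xist and 0.921 CPM of Ddx3y, while in the same mouse the remaining regions gave at most 5.99 CPM of Xist and at least 73.0 CPM of Ddx3y. Xist stood above Ddx3y in every library of 1 of 4 154Q mice (154Q-75), of 1 of 4 154Q-AXH mice (154Q-AXH-217) and of 0 of 4 WT mice, so these markers of sex were not balanced over the genotypes. The files of the cortical libraries 154Q-76 and 154Q-AXH-207 carry each other's names, and the labels were followed. Every 154Q mouse has a number in a lower series and every 154Q-AXH mouse in a higher one, with WT mice in both (WT-70 and WT-77 in the lower series, the other 2 in the higher). In bulk tissue, fewer cells of a type and less RNA per cell cannot be told apart.

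RefSeq held a promoter window for 64 of the 81 members, from 250 bases before to 50 bases after the start. The motifs searched were those of the regulators named above and of CIC. Their letters are the same in every region, and their part in a difference between regions was not tested. The NRF1 motif GCGCATGCG, searched on both strands as were all others, stood in 8 of the 64 windows (12.5%) and in 1.81% of 27025 windows of all genes. The ETS motif CCGGAAG stood in 15 member windows (23.4%, against 9.12% of all), the YY1 motif AAGATGGCG in 6 (9.38%, against 1.49%) and the ERRA motif TCAAGGTCA in 2 (3.12%, against 0.407%). Of the CIC octamers, TGAATGAA stood in 1 member window (1.56%, against 1.29% of all) and TGAATGGA in 1 (1.56%, against 1.21%). A match is a description of the letters and not a binding site.

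For 4 members the upstream stretch is printed 5′ to 3′ in the direction of the gene, ending before the first annotated exon. Cox6a1 and Cox8a were complex IV members with a wide range over WT regions, and Atp5b and Ndufv3 were called in a comparison of genotypes. Capitals mark the NRF1 motif in Cox6a1, which matches on both strands, and the CIC octamer in Cox8a. The ETS motif found in the windows of Cox6a1 and Cox8a does not lie wholly within the printed stretches. The stretches of Atp5b and Ndufv3 held none of the motifs searched. They lie on GRCm38.p6 at chr5:115348982-115349129 (minus strand), chr19:7217617-7217866 (minus), chr10:128083057-128083272 (plus) and chr17:31519981-31520114 (plus).
Cox6a1: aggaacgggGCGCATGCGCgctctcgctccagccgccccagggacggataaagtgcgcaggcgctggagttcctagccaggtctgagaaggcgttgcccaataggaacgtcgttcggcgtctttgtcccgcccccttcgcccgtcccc
Cox8a: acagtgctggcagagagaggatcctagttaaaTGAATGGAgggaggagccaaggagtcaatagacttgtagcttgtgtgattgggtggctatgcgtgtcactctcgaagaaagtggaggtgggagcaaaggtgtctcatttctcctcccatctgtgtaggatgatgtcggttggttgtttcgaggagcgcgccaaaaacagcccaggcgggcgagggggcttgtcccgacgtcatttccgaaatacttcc
Atp5b: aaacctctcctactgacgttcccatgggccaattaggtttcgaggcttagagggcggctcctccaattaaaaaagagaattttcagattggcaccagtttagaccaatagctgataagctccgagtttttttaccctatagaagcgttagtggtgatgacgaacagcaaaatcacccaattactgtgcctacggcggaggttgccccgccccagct
Ndufv3: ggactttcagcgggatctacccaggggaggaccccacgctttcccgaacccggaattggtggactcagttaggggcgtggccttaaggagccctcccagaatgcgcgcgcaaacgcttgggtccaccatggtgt

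In WT mice the members were highest in the striatum and lowest in the hippocampus. Of the 81 members, 54 had their highest region mean in the striatum and 57 their lowest in the hippocampus. The summed level of the members was 12322 ± 1673 CPM (SD, n = 4) in striatum, 11025 ± 287 in cortex, 10746 ± 402 in brainstem, 9961 ± 999 in cerebellum and 8638 ± 560 in hippocampus. The F test over the regions called 78 members, beside 91.6% of all genes tested, so a call by itself says little here. Cox5a, Uqcr10 and Uqcrb were not called (adjusted p = 0.104, 0.327 and 0.0882, edgeR). The range of the region means had a median of 0.58 on the log2 scale and ran from 0.26 for Uqcr10 to 4.31 for Cox6a2.

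Against the mean of the other 4 regions, 56 members were higher in striatum and 1 was lower, with a median log2 difference of 0.32. Without the WT-220 striatal library the median was 0.20 and 41 members were called in either direction, against 57 with it. Among all genes 31.4% were higher and 27.8% lower there. In hippocampus 58 members were lower and 1 was higher (median -0.32), while 26.9% of all genes were lower and 30.6% higher. The other 3 regions were mixed. In cortex 24 members were higher and 10 lower (27.9% and 28.3% of all genes), in brainstem 22 and 14 (32.6% and 32.0%), and in cerebellum 12 and 25 (37.2% and 35.2%). Among cytosolic ribosomal protein genes, 80 of 90 were also higher in striatum, with a median of 0.60, and 29 were lower in hippocampus (median -0.18). The WT-220 striatal library had the largest member sum, 14662 CPM, against 10885, 12341 and 11399 CPM in the other WT striatal libraries.

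**Figure D1:**
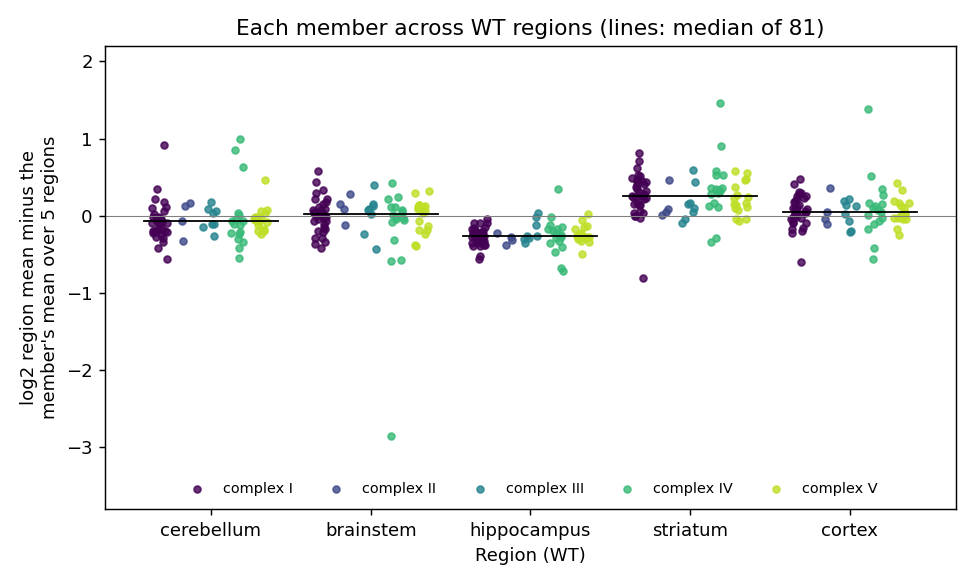
Each point is 1 member in 1 WT region, placed at its log2 region mean minus its own mean over the 5 regions and coloured by complex, and black lines are medians of the 81 members. The median lies highest in striatum and lowest in hippocampus, and the lowest point is Cox6a2 in brainstem.

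Ndufs1 and Ndufs7 of complex I differed in the width of their pattern. Ndufs1, the largest subunit, which carries iron-sulfur clusters, was 0.28 ± 0.03 (SE, log2) higher in brainstem (adjusted p = 1.96e-07, edgeR) and 0.25 ± 0.03 lower in hippocampus. Ndufs7, another iron-sulfur subunit, had a wider range and was 0.77 ± 0.08 higher in striatum (adjusted p = 1.46e-07). Complex II joins the tricarboxylic acid cycle to the chain, and its 4 subunits did not share 1 pattern. Sdha, the flavoprotein, was 0.37 ± 0.03 higher in brainstem (adjusted p = 3.9e-09) and Sdhb, the iron-sulfur subunit, 0.58 ± 0.06 higher in striatum (adjusted p = 2.49e-08). All 4 were lower in hippocampus. Atp5b, the catalytic beta subunit of ATP synthase, was 0.39 ± 0.05 lower in hippocampus (adjusted p = 3.41e-07).

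The NADH-binding subunits Ndufv1 and Ndufv2 shared the low hippocampal level. Ndufv1 was lower in hippocampus by 0.40 ± 0.04 (SE, log2; adjusted p = 1.12e-07, edgeR) and higher in striatum by 0.32 ± 0.04 and in cortex by 0.26 ± 0.04. Ndufv2 was instead highest in brainstem, at 70.3 ± 4.07 CPM per kb of exon (SD, n = 4) against 67.7 ± 9.47 in striatum, 2 levels that lie within their spread. The membrane anchors of complex II, Sdhc and Sdhd, were a little higher in cerebellum (0.20 ± 0.06 and 0.15 ± 0.05) and brainstem and were not called in striatum.

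In complex III, the core proteins Uqcrc1 and Uqcrc2 and the Rieske iron-sulfur protein Uqcrfs1 were all lower in hippocampus, by 0.43 ± 0.05, 0.37 ± 0.04 and 0.32 ± 0.05 on the log2 scale (adjusted p = 1.44e-07, 1.16e-07 and 7.67e-06, edgeR). Their other differences were smaller, and in striatum Uqcrc1 was higher by 0.21 ± 0.04 and Uqcrfs1 by 0.14 ± 0.05, while Uqcrc2 was not called. Uqcrb, the lowest member of the complex at 45.3 CPM per kb, ran from 39.5 to 49.1 CPM per kb over the regions. Uqcr11, a small accessory subunit, had the wide pattern, at 164 ± 46.7 CPM per kb in striatum and 80.0 ± 3.77 in brainstem, and was 0.76 ± 0.14 higher in striatum (adjusted p = 7.16e-05). WT-220 gave its highest striatal level, 148 CPM, against 80.6 to 101 CPM in the other WT libraries.

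Cox4i1 and Cox5b, general subunits that surround the catalytic core of complex IV, were higher in striatum by 0.66 ± 0.08 and 0.44 ± 0.10 (log2, adjusted p = 5.55e-07 and 0.000727, edgeR). Cox4i1 was lower in hippocampus by 0.58 ± 0.09 and in cerebellum by 0.40 ± 0.09. Cox5a, which had no call over the regions together, was 0.33 ± 0.13 lower in hippocampus (adjusted p = 0.0359). In complex V the gamma subunit Atp5c1, the central stalk, was 0.30 ± 0.05 lower in hippocampus and 0.14 ± 0.05 higher in striatum. Atp5a1 was 0.35 ± 0.04 lower in hippocampus, near the value of its partner Atp5b.

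Subunit c, the ring that turns in the membrane, is made from 3 genes that give the same mature protein. Atp5g3 was the highest of them in every WT region, from 87.0 ± 7.99 CPM per kb in hippocampus to 119 ± 17.5 in striatum. Atp5g2 had the widest range, from 21.7 ± 1.37 in brainstem to 42.4 ± 7.66 in striatum, and was 0.73 ± 0.09 (log2) higher in striatum (adjusted p = 9.78e-07, edgeR). Atp5g1 lay between 20.5 and 32.1 CPM per kb and was 0.47 ± 0.08 higher in striatum. The striatal difference of Atp5g3 was 0.22 ± 0.08 (adjusted p = 0.0306).

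Of the accessory subunits of complex I, Ndufa1 stood at 151 ± 49.99 CPM per kb in striatum and 72.5 ± 6.39 in hippocampus, and was 0.89 ± 0.14 (log2) higher in striatum (adjusted p = 1.02e-05, edgeR). Its striatal level was 94.2 CPM in WT-220, against 49.5 to 58.7 CPM in the other WT libraries. Ndufb9 was 1.02 ± 0.17 higher and Atp5o, the stalk subunit of complex V, 0.72 ± 0.18 higher in striatum. Ndufb2 went the other way, at 6.20 ± 0.55 CPM per kb in cerebellum and 1.87 ± 0.10 in striatum, where it was 1.00 ± 0.07 lower (adjusted p = 7.62e-11) and was the single member called lower.

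Per kilobase of exon and averaged over the WT regions, Cox8a was the highest member of complex IV at 419 CPM per kb and Cox4i2 the lowest at 1.88. Atp5b was the highest of complex V at 314 CPM per kb, and Sdha of complex II at 120. Uqcr10 led complex III at 134 and Ndufc2 led complex I at 108. Ndufb2, at 3.63 CPM per kb the lowest of complex I, has a long gene model here and overlaps other genes, as do Atp5o and Ndufb9, so their levels are uncertain. Atp5l (2.54 CPM per kb) has the same limit. These ranks turn with the length used. Per kb of the principal transcript, Ndufb10 led complex I (154), Uqcrh complex III (238) and Cox6a1 complex IV (486).

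Cox6a2 of complex IV had the widest range over the WT regions, and Ndufb2 of complex I (1.73 on the log2 scale) came next, before Cox7a1 (1.70), Cox6a1 and Cox6b2 (1.41). Cox6a1, the general form of subunit VIa, stood at 677 ± 134 CPM per kb in striatum, 516 ± 36.7 in cortex and 240 ± 15.9 in brainstem. In striatum it was 1.14 ± 0.09 (log2) above the mean of the other 4 regions (adjusted p = 1.24e-09, edgeR). Striatum and cortex overlapped, since the WT-70 striatal library (396.0 CPM) lay within the WT cortical range of 340.1 to 399.5 CPM. Its sister Cox6a2, known from heart and skeletal muscle and from parvalbumin neurons, stood at 9.59 ± 1.43 in striatum, 9.13 ± 1.77 in cortex, 4.45 ± 0.71 in hippocampus, 2.75 ± 0.59 in cerebellum and 0.48 ± 0.08 in brainstem. Striatum and cortex did not differ beyond their spread. Cox6a2 was thus 1.10% of the pair in WT cerebellum and 0.202% in WT brainstem. Cox7a1, the muscle form of subunit VIIa, was higher in cerebellum by 1.20 ± 0.19 (adjusted p = 9.76e-06), as was Cox6b2, known from testis, by 1.03 ± 0.22 (adjusted p = 0.000295). Cox4i2, a form linked to lung and to low oxygen, was higher in cerebellum (0.74 ± 0.16) and striatum (0.74 ± 0.19). Its striatal value leaned on 1 library, as the WT striatal libraries held 1.70, 1.34, 3.41 (WT-220) and 1.59 CPM. Apart from WT-220 they lay below every WT cerebellar library (1.94 to 2.64 CPM).

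The major forms had narrower patterns. Cox6b1 was higher in brainstem by 0.28 ± 0.08 (log2) and Cox7b by 0.31 ± 0.08, and neither was called in striatum. Cox7a2 was higher in striatum by 0.37 ± 0.08 and lower in hippocampus by 0.50 ± 0.08, while its relative Cox7a2l, known from the assembly of supercomplexes, was lowest in cerebellum, at 58.4 ± 3.32 CPM per kb and 0.53 ± 0.07 below the other regions (adjusted p = 5.16e-07, edgeR). Ndufa4, now counted as a subunit of complex IV, stood at 103 to 160 CPM per kb over the regions and its low-oxygen relative Ndufa4l2 at 1.59 to 2.44. Both were higher in striatum, by 0.36 ± 0.10 and 0.48 ± 0.13, and lower in hippocampus.

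**Figure D2:**
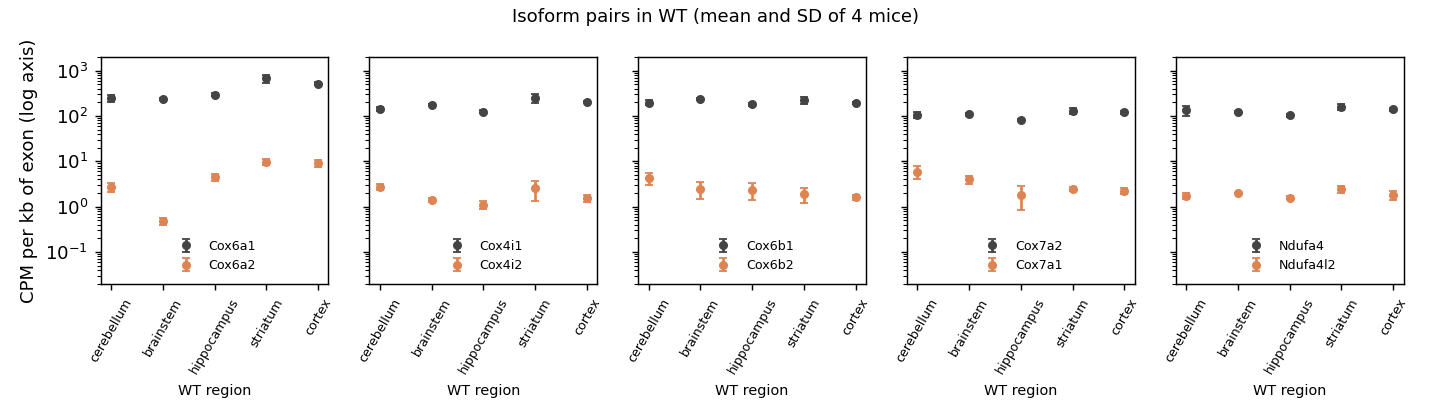
Points are WT means with SD of 4 mice in CPM per kb of exon, on a log axis, for 5 pairs of isoforms in 5 regions. The minor form lies far below the major one in every panel, and Cox6a2 has the widest spread over regions, from 0.48 to 9.59 CPM per kb.

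Cox6a2 was the member that changed most between genotypes. It lies on chromosome 7 at 128205435 to 128206387 (minus strand), inside the span of Itgad on the other strand. In cerebellum it stood at 2.26, 2.12, 1.73 and 1.37 CPM in the WT libraries, and at 0.832, 0.665, 1.13 and 0.850 CPM in the 154Q libraries. All 154Q libraries lay below all WT libraries. The log2 fold change was -1.12 ± 0.19 (SE) with an adjusted p of 0.00269 (edgeR), in a comparison that called 5.22% of all genes. In 154Q-AXH cerebellum it stood at 0.871, 0.807, 0.981 and 0.860 CPM, again below every WT library, and the fold change was -1.10 ± 0.19 (adjusted p = 0.00721; 2.21% of all genes called).

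The other regions where Cox6a2 was well counted gave the same direction in 154Q. In cortex the WT libraries held 4.69, 7.63, 6.16 and 6.35 CPM and the 154Q libraries 2.52, 2.78, 3.03 and 4.99 CPM, so that 154Q-76 lay above WT-70 and the groups overlapped. The log2 fold change there was -0.89 ± 0.19 (adjusted p = 0.00819; 11.1% of all genes called). Without 154Q-76 it was -1.15, and without WT-221 it was -0.88, and both were called. The cortical files of 154Q-76 and 154Q-AXH-207 carry each other's names, and 154Q-AXH-207 held 4.21 CPM, below WT-70. The overlap thus depends on which label of this pair is right, and Cox6a2 was called with the pair exchanged as well. In striatum the WT libraries held 5.65, 7.78, 6.79 and 5.87 CPM and the 154Q libraries 4.43, 3.89, 2.67 and 3.08 CPM, with no overlap (-0.89 ± 0.18, adjusted p = 0.0135; 5.69% of all genes called). In hippocampus WT held 3.29, 3.05, 3.42 and 2.35 CPM and 154Q held 1.32, 1.85, 1.80 and 1.11 CPM, also without overlap (-0.98 ± 0.22, adjusted p = 0.0202; 5.91% of all genes called). Without the 154Q-76 hippocampal library the change was -0.86 and was called (adjusted p = 0.0348). The hippocampal call was lost without WT-70, WT-220 or 154Q-69 (adjusted p = 0.0525, 0.0600 and 0.0565). All 154Q mice belong to the lower number series, and with a covariate for the series Cox6a2 was no longer called in striatum, cortex or hippocampus (adjusted p = 0.0744, 0.0552 and 0.0526, edgeR), while it was still called in cerebellum. In each of these 4 regions it was called without 154Q-75.

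In 154Q-AXH the fold changes of Cox6a2 were negative in these 3 regions and were not called in the main fit. They were -0.85 ± 0.22 in hippocampus (adjusted p = 0.0765), -0.61 ± 0.18 in striatum (adjusted p = 0.141) and -0.52 ± 0.19 in cortex (adjusted p = 0.113). Of the alternatives, 2 of 19 called Cox6a2 in hippocampus, DESeq2 and the fit without the mixed library 154Q-76. In cortex 2 of 20 called it, the fit of only the 2 genotypes and the fit without 154Q-76. In striatum 0 of 19 did. The direct comparison of 154Q-AXH with 154Q gave 0.02 ± 0.21 in cerebellum, 0.14 ± 0.23 in hippocampus, 0.28 ± 0.19 in striatum and 0.36 ± 0.21 in cortex, none of it called, so no difference between the mutants was shown. In brainstem Cox6a2 was near its floor, at 15 to 47 counts per library, and stood at 0.329 ± 0.055 CPM in WT, 0.331 ± 0.138 in 154Q and 0.342 ± 0.055 in 154Q-AXH.

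Itgad was counted at 3 to 25 reads per striatal or cortical library, where Cox6a2 had 88 to 355. In cerebellum Itgad had 3 to 23 and Cox6a2 67 to 190, and in hippocampus 8 to 42 and 77 to 328. In brainstem Itgad had 22 to 70. Of the 5 parvalbumin neuron markers, Kcnc1, Pvalb and Syt2 were lower in 154Q cortex, by 0.55, 0.58 and 0.57 on the log2 scale. In cerebellum and brainstem Kcnc1 alone was lower (by 0.27 and 0.28), and in striatum and hippocampus none was called. Their summed level was 440 ± 20 CPM in WT cortex and 301 ± 27 in 154Q cortex, 544 ± 61 and 386 ± 32 in striatum, and 1775 ± 81 and 1584 ± 62 in cerebellum. In hippocampus the sums were 224 to 287 CPM in WT and 192 to 214 CPM in 154Q, apart from 737 CPM in 154Q-76. Since Cox6a2 is also the form of skeletal muscle, muscle markers were read beside it. Of those tested, 2 of 3 were lower in 154Q cortex, Acta1 by 0.70 and Myh4 by 1.77 (log2), Acta1 was lower in striatum by 0.67, and none was called in cerebellum or hippocampus. The summed muscle markers were 14.3 ± 1.1 CPM in WT cortex and 8.73 ± 1.22 in 154Q cortex, and lay at 1.91 to 2.99 CPM in WT cerebellum and 2.37 to 2.87 CPM in 154Q cerebellum. The part of either marker list in the Cox6a2 result was not tested. In these 4 regions the fold change of Cox6a1 was not called. As a share of the pair per kb, Cox6a2 was 1.10% ± 0.05 (SD, n = 4) in WT cerebellum, 0.438% ± 0.114 in 154Q and 0.465% ± 0.062 in 154Q-AXH. In cortex these shares were 1.76% ± 0.41, 0.889% ± 0.261 and 1.09% ± 0.15.

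**Figure D3:**
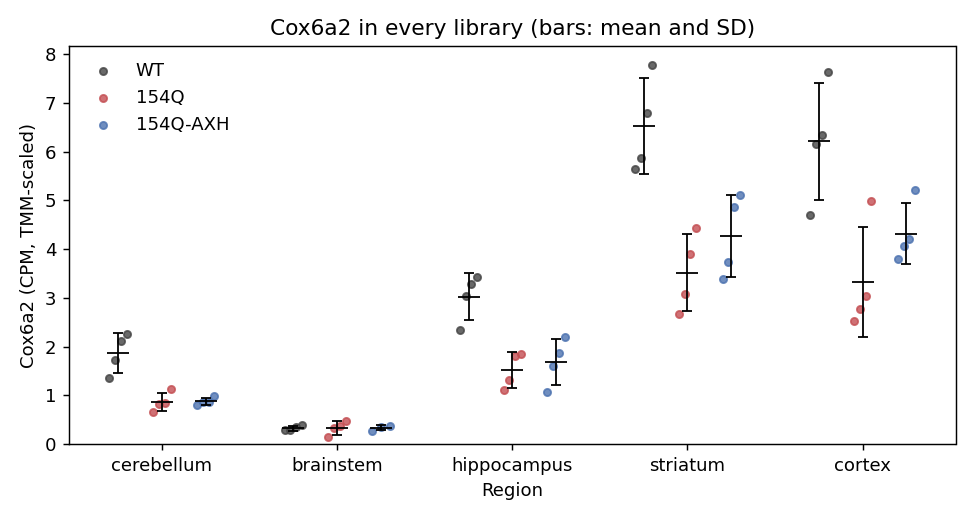
Each point is 1 library, in CPM scaled by TMM, by region and genotype, and bars are the mean and SD. In cerebellum, hippocampus and striatum every 154Q point lies below every WT point, and in brainstem all groups lie under 0.5 CPM.

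The other members moved little between 154Q and WT. In cerebellum 3 members were called (3.70%, against 5.22% of all genes). Beside Cox6a2, Atp5b rose, at 1427, 1398, 1376 and 1323 CPM in WT and 1608, 1596, 1552 and 1627 CPM in 154Q (0.21 ± 0.04, adjusted p = 0.00643). Atp5a1, the alpha subunit that forms the catalytic ring with Atp5b, rose from 958, 953, 953 and 918 CPM to 1051, 1033, 1012 and 1070 CPM (0.14 ± 0.04, adjusted p = 0.041). Neither pair of groups overlapped. Atp5a1 stayed called under 8 of 19 alternatives, and lost the call, for example, without WT-221 (adjusted p = 0.139). Of the 81 members, 70 had a positive fold change, and the median was 0.09, against 0.00 for all genes. With a covariate for the number series that median was -0.07, so its direction turned. It was 0.18 without WT-70, with 9 members called, and 0.02 without WT-221. Cytosolic ribosomal protein genes had a median of 0.08 in the same comparison, with 77 of 90 positive. Of the 5 cerebellum markers 3 were lower (median -0.36), and they summed to 5807 ± 199 CPM in WT and 4679 ± 107 in 154Q. The part of these markers in the shift of the members was not tested. The member sums of the WT libraries were 11270, 10115, 9533 and 8925 CPM, and the 154Q sums of 10200 to 11444 CPM lay within or above that range.

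In 154Q-AXH cerebellum neither Atp5b nor Atp5a1 was called. The log2 fold change was 0.16 ± 0.04 for Atp5b (adjusted p = 0.0561, edgeR) and 0.13 ± 0.04 for Atp5a1 (adjusted p = 0.104). As in 154Q, neither overlapped WT. Atp5b stood at 1489 to 1604 CPM in 154Q-AXH and Atp5a1 at 1000 to 1076 CPM, above every WT library, so a loss of the change was not shown. Sdhd had a cerebellar fold change of 0.14 ± 0.05 in 154Q and was not called (adjusted p = 0.0994).

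In striatum the median of the members was -0.20, against -0.01 for all genes, and 24 members (29.6%) had an unadjusted p under 0.05, against 23.6% of all genes. Cox6a2 alone was called. Without WT-220, the library with the largest sum, the median was -0.08. Cytosolic ribosomal protein genes had a median of -0.21 and mitochondrially encoded subunits one of -0.24 in the same comparison. The 5 oligodendrocyte markers summed to 11167 ± 3115 CPM in WT striatum and 7549 ± 738 in 154Q striatum, with none called. The 5 striatum markers had a median of -1.37, all with an unadjusted p under 0.05 and none called, and summed to 756 to 2497 CPM in WT and 369 to 591 CPM in 154Q. The 4 astrocyte markers had a median of -0.32, again all under 0.05 unadjusted with none called. The part of these lists in the shift of the members was not tested. In hippocampus and cortex the medians were -0.01 and -0.04, and Cox6a2 alone was called in each. In brainstem no member was called by edgeR or DESeq2 (0.538% of all genes called by edgeR), with 3 at an unadjusted p under 0.05 and a median of 0.01. The test of whether the 154Q effect differed between regions called no member by edgeR (5.71% of all genes called), with 6 at an unadjusted p under 0.05, and DESeq2 called Ndufs3.

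In 154Q-AXH, Cox6a2 was the member called in cerebellum and Ndufv3, a small subunit of the NADH-binding module, the one called in cortex. Ndufv3 stood at 42.5, 46.6, 43.1 and 42.7 CPM in WT cortex and 53.5, 48.0, 49.5 and 46.3 CPM in 154Q-AXH cortex, so the groups overlapped (0.18 ± 0.05, adjusted p = 0.0494; 7.15% of all genes called). It was no longer called when any of several single libraries was left out. In 154Q cortex Ndufv3 stood at 47.68, 47.27, 48.05 and 48.97 CPM, above every WT library, and was not called. No member was called in brainstem (0.0138% of all genes called), hippocampus (1.3%) or striatum (1.35%) by edgeR, with 11, 1 and 1 at an unadjusted p under 0.05, and DESeq2 called 0, 1 and 0. The brainstem median was 0.09, with 77 of 81 fold changes positive. In brainstem 15 members (18.5%) lay above every WT library in all 3 154Q-AXH libraries, against 4.33% of all genes, and none lay below, while cytosolic ribosomal protein genes had a median of 0.09 there as well.

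Between 154Q-AXH and 154Q no member was called in any region by edgeR or by DESeq2. All genes called came to 0.0335% in cerebellum and 0.0% in each other region. At an unadjusted p under 0.05 stood 1 member in cerebellum, 13 in brainstem, 1 in hippocampus, 3 in striatum and 1 in cortex. Apart from 154Q striatum against WT, no share of all genes at that threshold stands beside such counts. They are therefore not read as a result about the members. The medians were -0.04, 0.07, -0.01, 0.15 and 0.07 in that order.

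**Figure D4:**
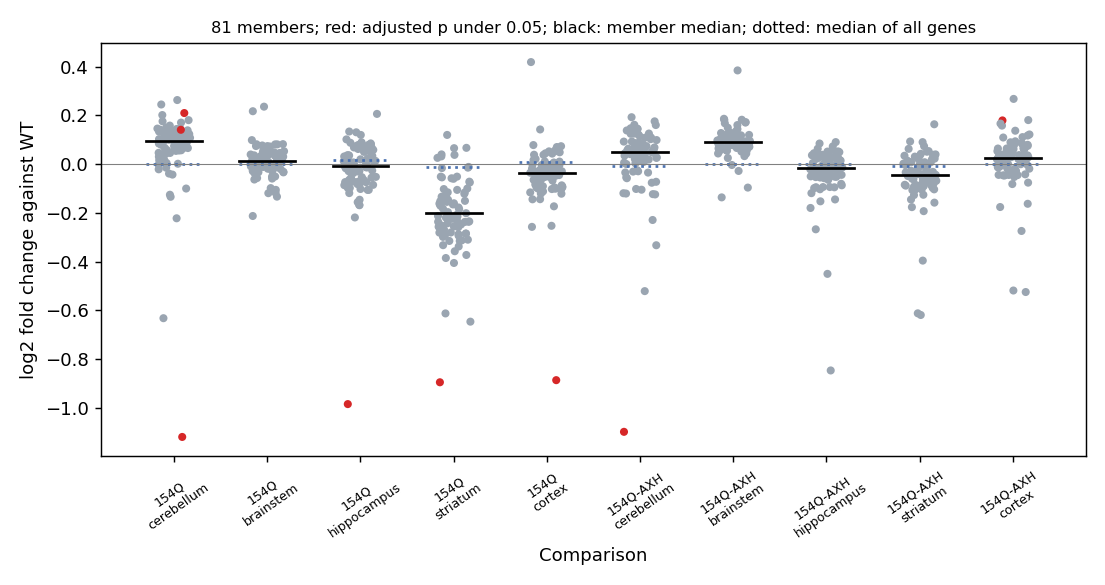
Each point is the log2 fold change of 1 member against WT in 1 of 10 comparisons, red where called, with the member median as a black line and the median of all genes dotted. The red points near -1 are Cox6a2, and the striatal 154Q median lies at -0.20.

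Few genes that work beside the complexes were called between genotypes, apart from electron carriers in 154Q cerebellum. Of all genes, 5.22% were called in 154Q cerebellum, 5.69% in 154Q striatum, 11.1% in 154Q cortex and 7.15% in 154Q-AXH cortex. Of 13 mitochondrially encoded subunits none was called in any comparison of genotypes by edgeR, and medians against WT ran from -0.24 to 0.10. Of 37 assembly factors, 1 rose in 154Q cerebellum and 1 fell in each of 154Q striatum and cortex. Of 13 tricarboxylic acid cycle genes, 1 rose in 154Q cerebellum, where 2 of 4 electron carriers rose too. None of 12 biogenesis factors was called against WT, and 1 of 77 mitochondrial ribosomal protein genes rose in cortex in each mutant. In WT hippocampus, 12 of 13 tricarboxylic acid cycle genes were lower than in the other regions (median -0.31), against 26.9% of all genes.

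**Figure D5:**
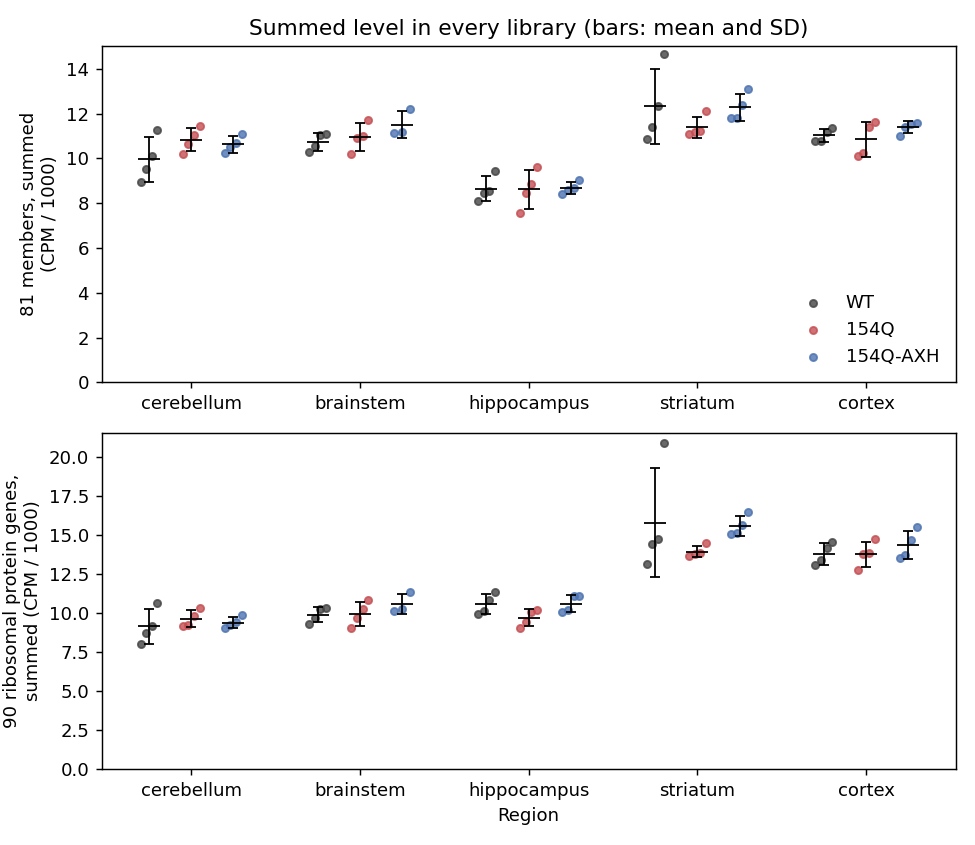
The upper panel sums the 81 members and the lower panel 90 cytosolic ribosomal protein genes in every library, with the axes in CPM divided by 1000, and with mean and SD. In WT the hippocampal mean of the members is the lowest, at 8638 CPM, and the striatal group has the widest spread in both panels.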

How the data were processed

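RNA-seq counts of 59 libraries from 12 mice were used. The deposited values are whole read counts per gene, not normalized. The authors trimmed 150-bp paired reads with Trimmomatic 0.36, aligned them with STAR 2.7.2d to GRCm38.p6 and counted them per gene (versions per the submitters' processing notes and the study's methods). Counting without regard to strand was used, so reads of overlapping genes on opposite strands could not be told apart. Symbols and positions came from GENCODE M21 on GRCm38, and promoter sequences from RefSeq on GRCm38.p6.

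In each region, genes were filtered with filterByExpr, scaled by TMM and fitted for the 3 genotypes together with edgeR 4.0.16 in R 4.3.3 (quasi-likelihood F tests, two-sided). WT regions were compared in 1 fit of 20 libraries, each region with the mean of the other 4. A gene was called at a Benjamini-Hochberg adjusted p under 0.05 over all genes tested. Levels are CPM (counts per 1000000 counted reads) scaled by TMM over all 59 libraries, and per kilobase of the union of annotated exons where genes are compared with each other. The fits were tested on simulated data, where recovery was high for well counted genes and low for genes under 1 CPM and the share of false calls was a little over the nominal one. The pass mark for recovery was changed after a first failure. The alternatives were DESeq2 1.42.0, other scalings, no filter on low counts, a gene length trend, a covariate for the mouse number series, the exchanged cortical pair and leaving out each library.

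Region, genotype and mouse came from the labels. The regions of 1 mouse carry the same mouse number, which pairs the WT regions and the libraries of the interaction test by animal, and mouse was a replicate block in an alternative. Libraries of different genotypes share no mouse. Members named with values were those called in a comparison of a mutant with WT, a list of core and entry subunits, the isoform families, the 6 others with the widest range over WT regions, and the highest and lowest of each complex per exonic length. A member that this rule names is not reported here. Ndufs3, members named for another transcript length, and single genes of the lists were named after their values were seen. The members and all lists were chosen with earlier results of these data known. CPM have counting error besides the spread between mice. Lines that name no mouse gene (4 of alignment totals, 1 of a human transgene) were left out.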

Additional observations from a re-analysis of the deposited data

Results flagged for a closer look

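In 3 of the 37 sets of libraries examined, the highest or lowest library stood apart from the rest of its group by Dixon's test, and chance flags about 1 in 20. The Atp5a1 level of WT-221 in cerebellum, 918 CPM, was far below the other 3 WT libraries, which lay at 953 to 958 CPM. Atp5a1 was called as higher in 154Q cerebellum. The summed members of 154Q-76 in striatum, 12092 CPM, were far above the other 3 libraries, at 11083 to 11212 CPM. The Ndufv3 level of WT-77 in cortex, 46.57 CPM, was far above the other 3 WT libraries, at 42.5 to 43.1 CPM, and is the value that made the WT and 154Q-AXH groups overlap.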

How the results depend on the processing

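Cox6a2 stayed lower in 154Q and 154Q-AXH than in WT in cerebellum, hippocampus, striatum and cortex under all alternatives run. In cerebellum it was called under all 19 in each mutant. In 154Q hippocampus it was called in 15 of 19, and not with the number series covariate (adjusted p = 0.0526) or without WT-70, WT-220 or 154Q-69. In 154Q striatum and cortex the covariate alone ended the call (adjusted p = 0.0744 and 0.0552). Atp5b was called in 154Q cerebellum under all 19, Atp5a1 under 8 of 19 and Ndufv3 in 154Q-AXH cortex under 8 of 20.

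Members called in 154Q cerebellum were 3, and were 6 with DESeq2 (8.85% of all genes called), 9 with the gene length trend (6.52%) and 2 to 9 when 1 library was left out, with 9 without WT-70 (6.31%). In 154Q-AXH cerebellum 1 became 4 with DESeq2 (6.16% of all genes), 3 without the filter (1.08%), 4 with the length trend (3.16%), 27 with the number series covariate (33.3% of members, 7.07% of all genes) and 1 to 2 with 1 library left out. With that covariate, the counts for 154Q hippocampus, striatum and cortex and for 154Q-AXH cortex were 0. In 154Q-AXH hippocampus DESeq2 called 1, and leaving out 1 library gave 0 to 1 (1 without 154Q-76), and the member was Cox6a2 in both. In 154Q hippocampus leaving out 1 library gave 0 to 1. In 154Q striatum DESeq2 called 2, and leaving out 1 library gave 1 to 4, with 4 without WT-70. In 154Q-AXH striatum that range was 0 to 1 (1 without WT-220). In 154Q cortex library totals gave 2, the exchanged pair 4, and leaving out 1 library 1 to 3 (3 without 154Q-76). In 154Q-AXH cortex library totals gave 3, no filter 0, only the 2 genotypes 3, the exchanged pair 0, and leaving out 1 library 0 to 2. For the interaction DESeq2 called 1, and leaving out 1 library gave 0 to 1. The cause of these moves was not tested. A count given here without a share of all genes is not read as a result about the members.

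Counts over WT regions stayed within 1.5 times under all alternatives, while the striatal median of 0.32 was 0.20 without WT-220. With mouse as a replicate block, which pairs the regions of a mouse, they were 78 for the F test, 38 in cerebellum, 40 in brainstem, 62 in hippocampus, 57 in striatum and 34 in cortex, and the interaction called 0. Without scaling, the member medians of 154Q hippocampus and cortex were 0.03 and 0.01 and those of 154Q-AXH hippocampus and striatum 0.02 and 0.01, the opposite sign to the TMM values. At 15 to 47 counts, Cox6a2 could not show a change of modest size in brainstem.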

Other observations

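Of the other minor isoforms of complex IV, Cox4i2 was low in 154Q-AXH cerebellum and Cox6b2 in 154Q cerebellum, without a call by edgeR. Cox4i2 stood at 2.64, 1.94, 1.98 and 2.09 CPM in WT and 1.56, 1.60, 1.29 and 1.54 CPM in 154Q-AXH, with no overlap (log2 fold change -0.52 ± 0.13, adjusted p = 0.0546, edgeR). Cox6b2 stood at 6.46, 5.30, 3.83 and 3.51 CPM in WT and 3.08, 2.98, 2.35 and 3.81 CPM in 154Q, with overlap (-0.63 ± 0.20, adjusted p = 0.0864). DESeq2 called Cox6b2 in 154Q and Cox4i2 in 154Q-AXH. Cox4i2 in 154Q (1.65 to 1.96 CPM) and Cox6b2 in 154Q-AXH (3.28 to 4.45 CPM) overlapped WT. The minor forms Cox7a1 and Ndufa4l2 overlapped WT in both mutants, so the minor forms did not share a drop.

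In 154Q cortex 3 of 4 astrocyte markers were lower (Gfap by 0.56, Aqp4 by 0.39 and Aldh1l1 by 0.29, log2), while none of the choroid plexus or microglia markers was called in 154Q.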
